A study of Homo sapiens with 8 samples.

Results

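The cytosolic ribosomal protein genes were examined in HCT116, a human colorectal cancer cell line in which an inducible short hairpin RNA (shRNA) lowered the homeobox transcription factor gene HOXB8. Members were all genes of the expression table named RPLP0, RPLP1, RPLP2 or RPSA, or named RPL or RPS followed by digits and at most a single A, X or L. The rule found 80 genes among the 17166 of the table, 32 of the small and 48 of the large subunit. Kinases of RPS6 and mitochondrial ribosomal proteins fall outside it.

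PolyA-selected RNA was sequenced from 8 libraries of cells that all carried a stably introduced, doxycycline-inducible hairpin against HOXB8. The 4 groups, with 2 repeats each, were the sh1 line with 1 ug/ml doxycycline for 72 hours (sh1 dox), the sh1 line without it (sh1 no-dox), the sh2 line with doxycycline (sh2 dox) and the sh2 line without it (sh2 no-dox). Every doxycycline-treated library also carried a HOXB8 hairpin, so drug and knock-down cannot be told apart here. Repeats are written r1 and r2, and values are FPKM, fragment numbers divided by transcript length and by the size of the library.

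Ribosomal proteins clothe the ribosomal RNA of the subunits that together translate every cytosolic message. The small subunit holds the messenger RNA and checks the codon, and the large subunit joins the amino acids and leads the new chain out through a tunnel. The proteins are needed in nearly equal amounts, and their messages share a terminal oligopyrimidine (TOP) tract, a C followed by pyrimidines right at the start, through which the kinase mTORC1 and the RNA-binding protein LARP1 set their translation. Each gene has many processed pseudogenes, so reads can be hard to assign, and RPL17, RPL36A and RPS10 also have a read-through row of their own in the table. How such reads were counted is not given in the sources used here.

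The first bases of the message are shown for 6 members that passed the threshold below and for 2 that did not, from RefSeq start positions on GRCh38.p14. Each window holds 20 bases before the start and 20 from it, on the gene's own strand, and capitals mark the unbroken pyrimidine tract that begins with a C at the start. RPS26 and RPS27L are shown because their windows have no such tract.
RPS19 (chr19:41860235-41860274, plus strand): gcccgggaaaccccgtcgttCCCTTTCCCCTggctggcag
RPL35 (chr9:124861938-124861977, minus strand): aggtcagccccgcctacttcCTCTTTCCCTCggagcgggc
RPL13A (chr19:49487588-49487627, plus strand): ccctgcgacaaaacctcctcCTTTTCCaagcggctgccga
RPS12 (chr6:132814549-132814588, plus strand): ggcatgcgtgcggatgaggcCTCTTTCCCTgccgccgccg
RPS9 (chr19:54200838-54200877, plus strand): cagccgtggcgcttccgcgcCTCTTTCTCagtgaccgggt
RPS14 (chr5:150449720-150449759, minus strand): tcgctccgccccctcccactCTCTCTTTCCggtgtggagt
RPS26 (chr12:56041898-56041937, plus strand): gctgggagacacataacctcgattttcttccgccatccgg
RPS27L (chr15:63157458-63157497, minus strand): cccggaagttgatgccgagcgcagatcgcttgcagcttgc

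A RefSeq window was matched by gene identifier for 63 of the 80 members. Those without include RPS2, RPS15A, RPS20, RPL3L, RPL5, RPL7, RPL8, RPL23, RPL23A, RPL30, RPL37 and RPL39L. In 46 of the 63 members with a window, 73.0%, a start began with C and at least 4 further pyrimidines, against 6.77% of the 13675 genes of the table with a window. The letters CTTTC, read on the coding strand within 15 bases of a start, were found for 49.2% of the members with a window and 6.09% of all genes with a window. Such letters can lie within the tract itself. In the whole window of 250 bases before and 50 after the start, CGGAAG on either strand, the core of the sites of ETS factors, was in 65.1% of members and 32.6% of all genes. AAGATGG on either strand, part of the YY1 site, was in 12.7% of members and 8.31% of all. CACGTG, the palindromic site to which MYC can bind, was in 6.35% of members and 11.5% of all. Among the members that passed the threshold for doxycycline, all 11 with a window had the tract at the start, and among the others 35 of 52 did. These letters are a description of the windows and show no binding.

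Most members were among the highest messages of the cell. The mean over the 8 libraries was above 1000 FPKM for 39 members, and 61 of the 100 highest genes of the table were members, as were 6 of the 10 highest. The median was 1051 FPKM for small subunit members and 936 FPKM for large subunit members, against 12.2 FPKM over all tested genes. RPS2, a protein of the channel by which the messenger RNA enters, was the highest gene of the whole table at 4007 FPKM. RPL8 (2489 FPKM), RPLP0 (2305 FPKM), RPLP1 (2243 FPKM) and RPL41 (2234 FPKM) followed among the members. RPLP0 and RPLP1 belong to the stalk that recruits elongation factors, and RPL41 is the smallest protein of the ribosome. Their levels lie so close that the order of RPLP1 and RPL41 changed between libraries.

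The 3 lowest members were paralogs. RPL39L and RPL3L, paralogs used in testis and in striated muscle, averaged 0.0775 and 0.181 FPKM, beside 591 FPKM for RPL39 and 1812 FPKM for RPL3. RPL39L was listed at 0 in sh1-dox-r2, sh2-dox-r2 and sh1-no-dox-r2. RPL3L read 0.17 to 0.49 FPKM in dox and 0.07 to 0.14 FPKM in no-dox libraries, levels too low for a test here. Both were below the filter of a mean of 1 FPKM, and the other 78 members were tested. RPS27L, a paralog of RPS27, averaged 55.1 FPKM against 1048 FPKM for RPS27. RPL27A (150 FPKM), RPS23 (178 FPKM) and RPL22 (187 FPKM) were the next lowest.

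**Figure D1:**
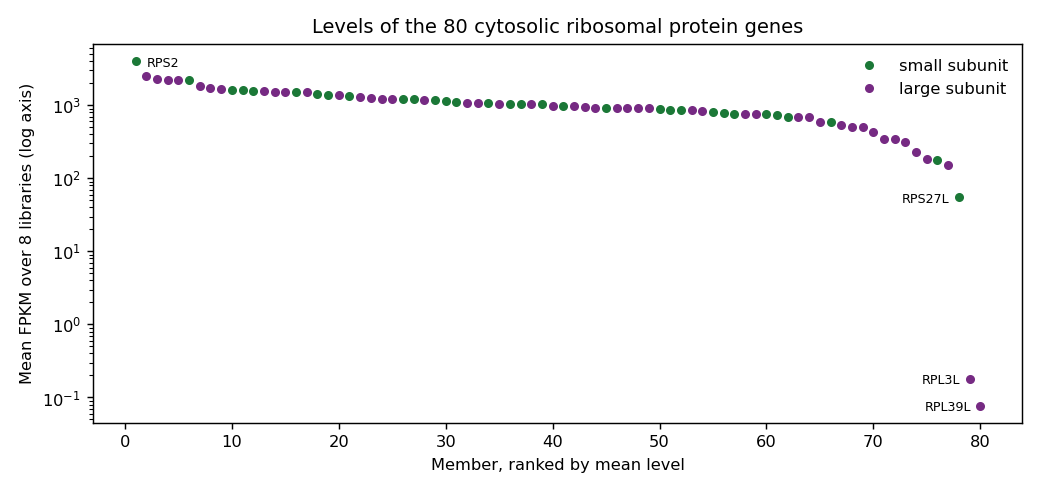
Mean FPKM over the 8 libraries (log axis) of each of the 80 members, ranked from the highest to the lowest, with small subunit members in green and large subunit members in purple. RPS2 leads at 4007 FPKM, and RPL3L and RPL39L stand apart below 1 FPKM.

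HOXB8 itself, the target of both hairpins, fell by 66.1%, with 6.52 FPKM in dox and 19.2 FPKM in no-dox libraries (log2 change -1.43, adjusted p = 6.86e-07 by limma). The libraries expressed the epithelial markers EPCAM, KRT8, KRT18, CDH1 and KRT19, at means from 23.0 to 1209 FPKM, of which CDH1 and EPCAM were called higher and KRT8 and KRT18 lower with doxycycline. Of the markers of other cell types, the 3 fibroblast genes in the table summed to 6.29 to 8.38 FPKM in dox and 6.57 to 7.93 FPKM in no-dox libraries, nearly all from COL1A1. The 4 immune genes summed to 1.67 to 2.04 FPKM in dox and 1.42 to 1.64 FPKM in no-dox libraries, and the 2 endothelial genes to 0.35 to 0.44 FPKM and 0.31 to 0.44 FPKM. COL1A2, COL3A1 and CD14 averaged 0.04 FPKM or less in each state. FPKM columns summed to 440100 to 446900, and sequencing depth is unknown.

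The members together took 19.3% and 19.7% of the summed FPKM in sh1 dox libraries, against 18.4% and 18.6% in sh1 no-dox libraries. In the sh2 line they took 19.3% and 20.1% with doxycycline, against 18.8% and 19.4% without it. The share was 19.6 ± 0.385% in dox and 18.8 ± 0.44% in no-dox libraries (SD, n = 4 per state), a difference of 0.81 percentage points. In sh1 both dox libraries lay above both no-dox libraries, while in sh2 the states overlapped. In each of the 4 groups r2 had the larger share. The summed level of large over that of small subunit members was 1.319 to 1.332 in dox and 1.325 to 1.339 in no-dox libraries, ranges that overlap. Such a share can rise with more message of the members or with less of other genes, which FPKM cannot tell apart, nor can fewer cells of a kind be told from less RNA per cell.

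**Figure D2:**
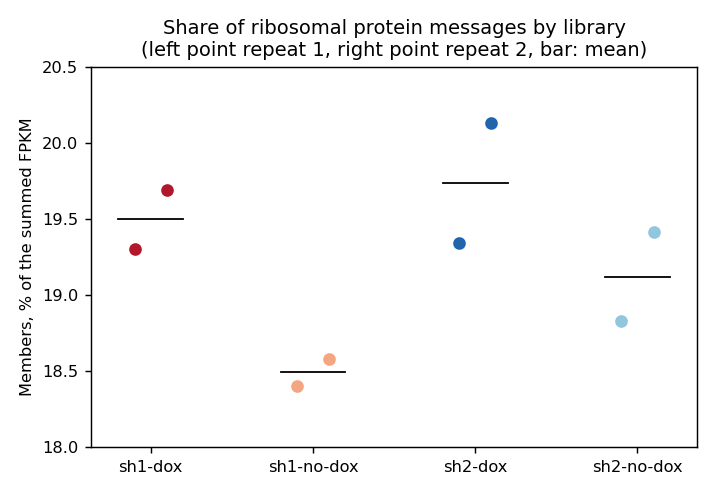
Summed FPKM of the 80 members as a percentage of all summed FPKM (y axis, drawn from 18%), with 1 point per library and a bar at the mean of each group of 2. Both sh1 dox libraries (19.3% and 19.7%) lie above the sh1 no-dox libraries (18.4% and 18.6%), while in sh2 the lower dox library (19.3%) falls below the higher no-dox library (19.4%).

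Averaged over both lines, 14 of 78 tested members rose with doxycycline and 0 fell by limma on log2(FPKM + 1), at an adjusted p under 0.05. Over all tested genes 10.1% were called higher and 6.2% lower, while 17.9% of the members were called higher. At an unadjusted p under 0.05 there were 34 higher members, 43.6%, and 0 lower, against 19.7% and 12.5% of all tested genes. The changes were small: the median member had a log2 change of 0.06, the range was -0.05 to 0.16, and 69 of 78 were positive, against a median of 0.02 and 57.0% positive over all tested genes. All 4 dox libraries lay above all 4 no-dox libraries for 12 of 78 members, 15.4%, and below them for none, against 10.2% and 6.87% of all tested genes. Calls over the whole table also moved when a library was left out, and the count of 14 followed single libraries. Genes called higher over the whole table, 1180 in the full fit, are given in brackets, with 11691 to 11729 tested. The members' count dropped to 1 without sh1-no-dox-r1 (526), to 3 without sh1-dox-r2 (587) and to 3 without sh2-no-dox-r1 (565). It was 5 without sh1-no-dox-r2 (707), 7 without sh2-dox-r2 (846) and 8 without sh1-dox-r1 (941). Omitting sh2-no-dox-r2 gave 17 (715), and omitting sh2-dox-r1 gave 26 (1375). With median-of-ratios scaling 4 members were called, 5.13% against 7.55% of all tested genes (8.53% lower), and over the whole table the calls then split into 884 higher and 999 lower in place of 1180 and 726. With no filter on low values, and 17166 genes tested, 0 members passed, against 590 genes called higher and 431 lower over the whole table. Quantile normalization gave 8 members, 10.3% against 7.88% (7.79% lower), with 923 higher and 912 lower genes and a median member change of 0.03. The members' share of higher calls thus stood above that of all genes with the deposited values, the filter and trended moderation, and with quantile normalization. It stood below that of all genes with median-of-ratios scaling or no filter. The share was also below with no trend in the moderation (3 of 78 members, 971 of 11712 genes). Leaving out sh1-no-dox-r1, sh1-dox-r2 or sh2-no-dox-r1 likewise put it below.

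Among small subunit proteins, 6 of 32 rose. RPS19, a protein of the head of the subunit and the first gene found mutated in Diamond-Blackfan anemia, read 1602 and 1596 FPKM in sh1 dox against 1411 and 1419 FPKM in sh1 no-dox libraries. In the sh2 line it read 1566 and 1653 FPKM with doxycycline against 1450 and 1516 FPKM without it. The states did not overlap, and RPS19 rose by 10.7% (1604 ± 36.1 FPKM in dox and 1449 ± 47.9 FPKM in no-dox libraries, SD, n = 4 each; log2 change 0.15, SE 0.03, adjusted p = 0.00854 by limma; two-sided exact permutation p = 0.0286, the smallest 4 against 4 can give).

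RPS2, the highest gene of the table, read 3987 and 4277 FPKM in sh1 dox against 3712 and 3852 FPKM in sh1 no-dox libraries. In sh2 it read 4239 and 4424 FPKM with doxycycline against 3771 and 3791 FPKM without it. The lowest dox library lay above the highest no-dox library, and RPS2 rose by 11.9% (log2 change 0.16, SE 0.03, adjusted p = 0.00889 by limma). Under quantile normalization RPS2 had a change of 0, since it holds the first rank in every library and that method gives equal ranks equal values.

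RPS12, a small subunit protein, read 1655 and 1648 FPKM in sh1 dox against 1479 and 1490 FPKM in sh1 no-dox libraries, and 1624 and 1706 FPKM in sh2 dox against 1538 and 1596 FPKM in sh2 no-dox libraries. It rose by 8.65% with no overlap of the states (log2 change 0.12, SE 0.03, adjusted p = 0.0166 by limma). RPS14, which lines the channel by which the messenger RNA leaves, rose by 7.88% with no overlap (log2 change 0.11, adjusted p = 0.0269). RPS9 rose by 8.51% (0.12, adjusted p = 0.0237), with sh2-no-dox-r2, at 1237 FPKM, above sh1-dox-r2, at 1204 FPKM.

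Among large subunit proteins, 8 of 46 tested rose. RPL35, at the rim of the exit tunnel, read 1247 and 1215 FPKM in sh1 dox against 1148 and 1146 FPKM in sh1 no-dox libraries. In the sh2 line it read 1262 and 1259 FPKM with doxycycline against 1123 and 1151 FPKM without it. The states were separate in both lines, with a rise of 9.11% (log2 change 0.13, SE 0.03, adjusted p = 0.00947 by limma).

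RPL31, another protein of the tunnel rim, read 883 and 920 FPKM in sh1 dox against 800 and 809 FPKM in sh1 no-dox libraries, and 871 and 897 FPKM in sh2 dox against 855 and 857 FPKM in sh2 no-dox libraries. Its states did not overlap, the gap was wider in sh1, and it rose by 7.52% (log2 change 0.10, SE 0.03, adjusted p = 0.023).

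RPL13A, which also takes part in translational silencing outside the ribosome, rose by 9.62% (log2 change 0.13, SE 0.03, adjusted p = 0.0143). RPL12, beside the base of the stalk, rose by 8.26% (0.11, adjusted p = 0.0291), and RPL41 by 7.62% (0.11, adjusted p = 0.0288). RPL10, whose loop reaches towards the site of peptide bond formation, rose by 6.97% (0.10, adjusted p = 0.042). RPL37A had the smallest rise of those called, 5.94% (0.08, adjusted p = 0.0417), with states that overlapped. The states also overlapped for RPL13A and RPL41, but not for RPL12 and RPL10.

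**Figure D3:**
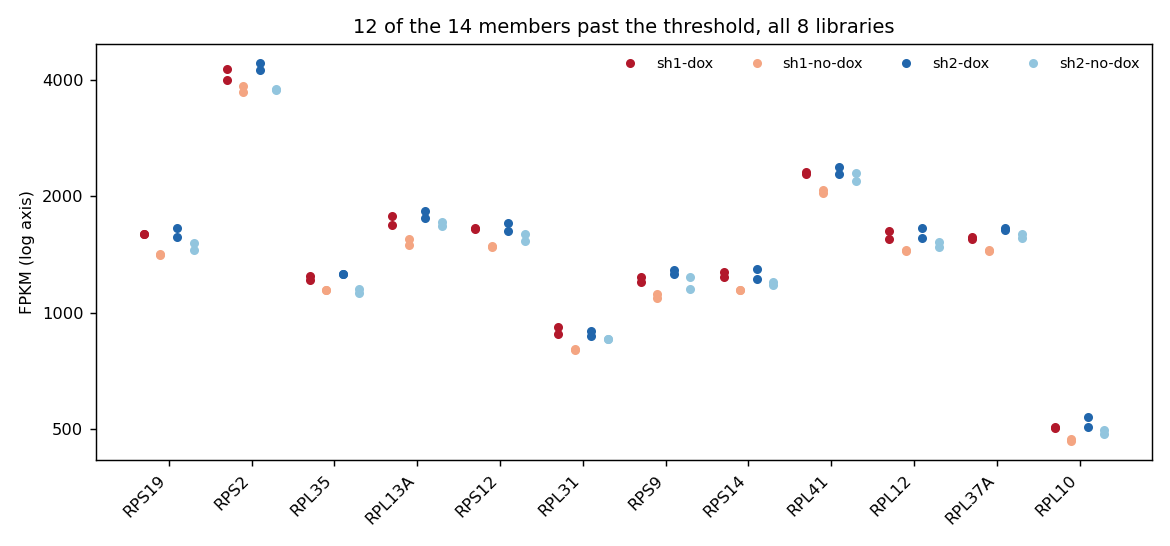
FPKM (log axis) of 12 of the 14 members past the threshold in all 8 libraries, ordered by p-value, with sh1 dox and sh1 no-dox in dark and light red and sh2 dox and sh2 no-dox in dark and light blue. Within a line the mean of the dox libraries exceeds that of the no-dox libraries by 3.25% (RPL31 in sh2) to 14.6% (RPS2 in sh2), with overlap for RPL41 in sh2.

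Leaving out single libraries ended many of these calls. RPS19 passed in all 8 such refits. RPS2 and RPL35 did not pass without sh1-no-dox-r1 (adjusted p = 0.0555 and 0.0523). RPL13A was lost on leaving out sh1-dox-r2 (0.0703), and likewise for sh1-no-dox-r1 (0.0798) and for sh2-no-dox-r1 (0.0509). RPS12 was lost when any sh1 library (0.0509 to 0.0795) or sh2-no-dox-r1 (0.056) was omitted. RPL31 lost its call, in the order of size, for sh1-no-dox-r1 (0.104), for sh1-dox-r2 (0.102), then for sh1-no-dox-r2 (0.0763) and for both sh2 no-dox libraries (0.063 for r1 and 0.0522 for r2). RPL12 lost its call for sh1-dox-r2 (0.124), sh1-no-dox-r1 (0.11), sh2-no-dox-r1 (0.0909), sh1-no-dox-r2 (0.0905) and sh2-dox-r2 (0.0688). RPS9 and RPL41 passed only without sh2-dox-r1 (0.0241 and 0.0169) or sh2-no-dox-r2 (0.0172 and 0.0282). RPS14, RPL37A and RPL10 passed only without sh2-dox-r1 (0.00959, 0.0358 and 0.0122).

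The stalk proteins had log2 changes of 0.08 for RPLP0, 0.10 for RPLP1 and 0.06 for RPLP2, and 0 of the 3 passed (adjusted p from 0.071 to 0.327). RPLP2 read 1162 and 1304 FPKM in sh1 dox against 1229 and 1211 FPKM in sh1 no-dox libraries, so its dox repeats lay on either side of both. RPL5 and RPL11, which with a small ribosomal RNA bind and block the ubiquitin ligase MDM2 when assembly fails, had log2 changes of 0.0047 and 0.03 (adjusted p = 0.936 and 0.464). RPS6, the phosphorylated target of the S6 kinases, read 1629 and 1648 FPKM in sh1 dox against 1509 and 1544 FPKM in sh1 no-dox libraries, and had a change of 0.09 (adjusted p = 0.0574). RPSA, the laminin receptor precursor, had a change of 0.06 (adjusted p = 0.251). Of the 12 Diamond-Blackfan anemia genes in the list, which need not be complete, RPS19 was the only one called. Over all tested genes 10.1% were called higher. The median of the 12 was 0.03.

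The largest negative change was that of RPS27A, which is made as a fusion with ubiquitin. It read 588 and 565 FPKM in sh1 dox against 585 and 570 FPKM in sh1 no-dox libraries, and 571 and 574 FPKM in sh2 dox against 616 and 607 FPKM in sh2 no-dox libraries. The states were mixed in sh1 and separate in sh2, and the averaged change did not pass (log2 change -0.05, adjusted p = 0.225). RPS26 (-0.03), RPL38 (-0.02) and RPL24 (-0.01) did not pass either. RPS27L read 53.2 to 56.3 FPKM in dox and 52.8 to 57.1 FPKM in no-dox libraries, with overlapping states and a log2 change of -0.0033.

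In the sh1 line alone, 5 members rose: RPL31 (log2 change 0.16), RPS19 (0.18), RPL13A (0.18), RPL41 (0.16) and RPS12 (0.15), with adjusted p from 0.0308 to 0.0459 by limma. That is 6.41% of the members, against 3.71% of all tested genes called higher and 2.56% called lower in that line. In the sh2 line RPS2 was the only one (0.20, adjusted p = 0.04996), 1.28% of the members against 1.38% of all tested genes called higher and 1.15% called lower. No member fell in either line by limma. At an unadjusted p under 0.05 there were 27 higher (34.6%) and 0 lower in sh1, against 15.7% and 8.9% of all tested genes. In sh2 there were 11 higher (14.1%) and 1 lower, against 10.9% and 7.8%. The members called in sh1 numbered 0 without any single sh1 library, where 43 to 138 genes were called higher over the whole table, in place of 434. They numbered 8 without sh2-dox-r1 (652 genes) and 10 without sh2-dox-r2 (658). Without either sh2 no-dox library there were 4 (262 genes for r1 and 265 for r2). The sh2 count was 1 without sh2-dox-r1 (209 genes higher over the whole table, in place of 162) and 0 without each other library (8 to 109 genes).

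In sh1, 74 of 78 members had a positive change, with a median of 0.08, against 58.5% positive and a median of 0.03 over all tested genes. For the members that median was 0.05 with median-of-ratios scaling and 0.04 with quantile normalization, and for 61 of 78 both dox libraries lay above both no-dox libraries, 78.2% against 35.1% of all tested genes. RPL38 alone lay below, 1.28% against 21.9%. In sh2, 56 of 78 were positive, with a median of 0.04, against 53.1% and 0.0084 over all tested genes. Single libraries moved this: the median was 0.0097 with 42 positive when sh2-no-dox-r1 was left out, 0.0228 with 52 for sh2-dox-r2, 0.0713 with 65 for sh2-dox-r1 and 0.0843 with 64 for sh2-no-dox-r2, above the sh1 median in that last case. For 28 of 78, 35.9%, both dox libraries lay above, against 26.1% of all tested genes. RPS24, RPL35A, RPS20 and RPS27A lay below, 5.13% against 21.2%. In both lines at once 23 members, 29.5%, lay above, against 16.7%. RPS24, RPL35A and RPS20 were separate in opposite directions, above in sh1 and below in sh2, 3.85% against 1.96%, and 0 members the other way round, against 1.11%. RPL35A, for example, read 864 and 869 FPKM in sh1 dox against 811 and 824 FPKM in sh1 no-dox libraries, but 819 and 837 FPKM in sh2 dox against 858 and 852 FPKM in sh2 no-dox libraries. The test of the difference itself (sh2 minus sh1 effect) called 0 of 78 members and 0 of all tested genes by limma, with 3 members at an unadjusted p under 0.05, all lower, or 3.85% against 2.81% of all tested genes lower and 2.02% higher. The smallest p was that of RPL35A (-0.13, SE 0.05, adjusted p = 0.992), followed by RPL31 (-0.12, SE 0.05), RPS20 (-0.11), RPS24 (-0.11), RPL7 (-0.12) and RPL9 (-0.10). RPS20 read 799 and 798 FPKM in sh1 dox against 756 and 758 FPKM in sh1 no-dox libraries, and 792 and 793 FPKM in sh2 dox against 796 and 828 FPKM in sh2 no-dox libraries. RPL7 read 1594 and 1548 FPKM in sh1 dox against 1478 and 1461 FPKM in sh1 no-dox libraries, and 1488 and 1576 FPKM in sh2 dox against 1552 and 1560 FPKM in sh2 no-dox libraries. In sh1 the dox libraries lay above for both genes, while in sh2 they lay below for RPS20 and on either side for RPL7.

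**Figure D4:**
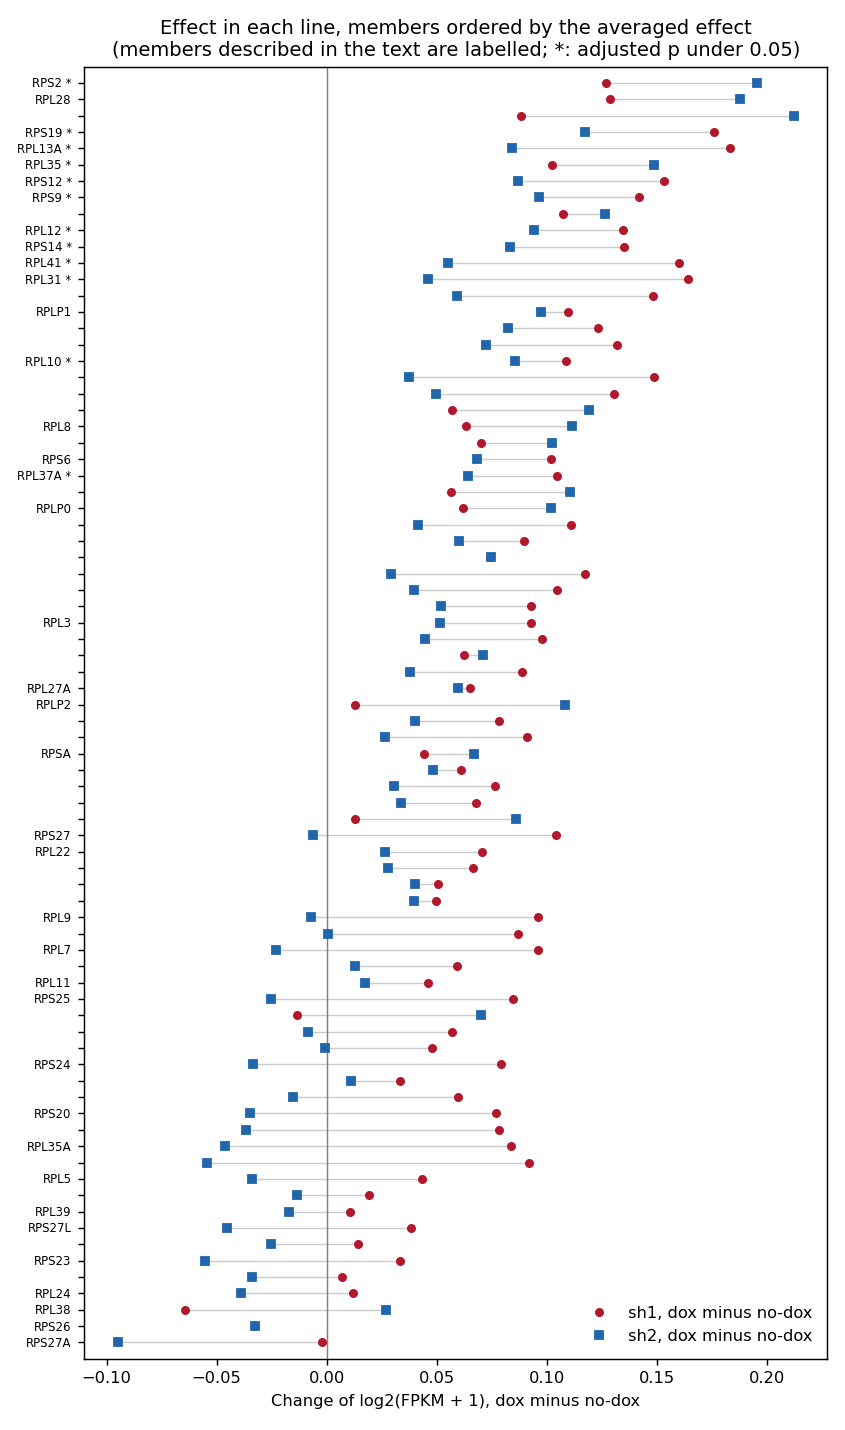
Change of log2(FPKM + 1), dox minus no-dox, of the 78 tested members in the sh1 line (red circles) and the sh2 line (blue squares), ordered by the average. Members described in the text are labelled, with an asterisk at an adjusted p under 0.05 for the averaged effect. In sh1, 74 of 78 circles lie right of 0, and in sh2, 56 of 78 squares do, with RPS2 at the top and RPS27A at the bottom.

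The members' changes in sh2 went with the GC content of their transcripts. GC content was taken from GENCODE transcripts matched by RefSeq accession, for 77 of the 78 members, and ran from 42.1% to 62.7%. In sh2 the Spearman correlation of the change with GC content was 0.73 over the 77 members, and in sh1 it was 0.162. Over the other 11426 tested genes with a value it was 0.327 in sh2 and 0.139 in sh1. Members are not independent points, since all share the same libraries, so these are descriptions without a test. Each single pair of an sh2 dox and an sh2 no-dox library gave a value between 0.553 and 0.662, and each sh1 pair a value between -0.085 and 0.295. Pairs of a line share libraries, so they are not separate measurements.

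Split by GC content, the 25 members with the lowest values (42.1% to 47.0%) had a median change of -0.01 in sh2, and 12 of 25 were positive. The middle 27 had a median of 0.04, and 19 were positive. The 25 with the highest values (52.3% to 62.7%) had a median of 0.10, and 25 of 25 were positive. In sh1 the medians were 0.08, 0.07 and 0.09. RPS2 (59.0% GC), RPL28 (56.5%) and RPL35 (58.2%) were among the highest in sh2, while RPS27A (44.6%) and RPS23 (44.6%) were at its low end. Of the 14 members called for the averaged effect, 8 were in the highest class, 4 in the middle and 2, RPL31 (42.3%) and RPL37A (44.7%), in the lowest.

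Deviations of single libraries went with GC content over all genes as well. Within a library, the deviation of each gene from its mean over the libraries correlated with GC content over the 77 members at 0.506 and 0.502 in sh2 dox, against -0.615 and -0.354 in sh2 no-dox libraries. In sh1 it was -0.182 and 0.25 with doxycycline, against -0.205 and 0.013 without it. Over the other tested genes the values were 0.255 and 0.208 in sh2 dox against -0.272 and -0.086 in sh2 no-dox libraries, and -0.095 and 0.188 in sh1 dox against -0.203 and -0.05 in sh1 no-dox libraries. With each library corrected for GC content, an alternative chosen after seeing the data, 3 of 77 members were called higher in place of 14: RPS19 (adjusted p = 0.041), RPS2 (0.0398) and RPL31 (0.032). That was 3.9% of the members against 6.25% of all genes so tested, with 8.39% lower, so the members' share of calls no longer stood above that of all genes. The median member then had a change of 0.04, and 64 of 77 were positive. Among the members a higher mean level also went with a larger averaged change (Spearman 0.539 over 78 members). Over the other 11634 tested genes the sign was opposite (-0.17). The members' level and GC content were themselves correlated at 0.42.

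**Figure D5:**
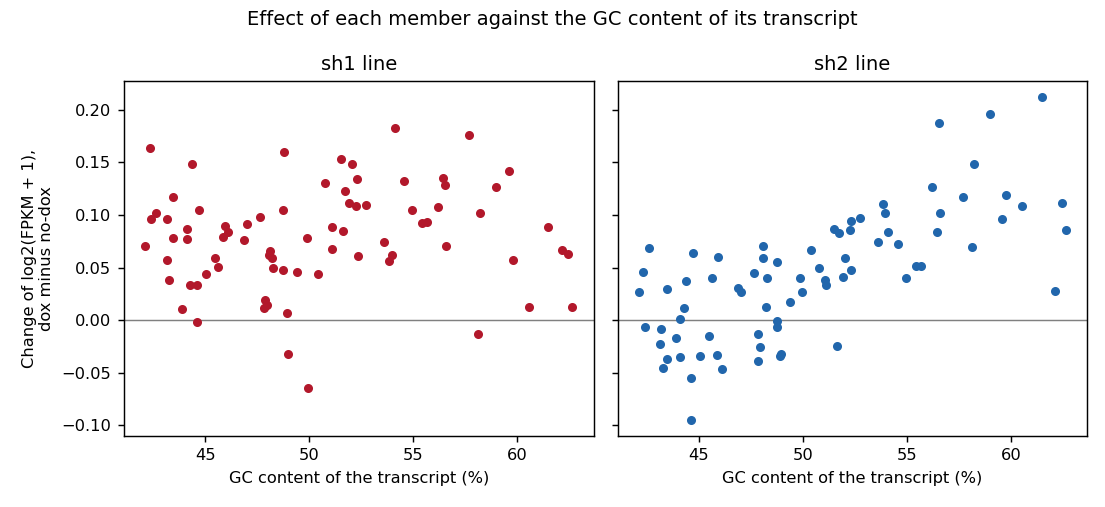
Change of log2(FPKM + 1), dox minus no-dox, of 77 members against the GC content of the transcript (%), in the sh1 line (left) and the sh2 line (right). In sh2 the points climb with GC content (Spearman 0.73), while in sh1 most lie above 0 over the whole range (0.162).

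Without doxycycline no member passed between the lines. The sh2 minus sh1 difference of the no-dox libraries had a median of 0.06 over the 78 members, similar in size to the median doxycycline effect, against 0.02 over all tested genes, and 65 of 78 were positive. The members' median was 0.0313 without sh2-no-dox-r2, 0.0365 with median-of-ratios scaling, 0.0353 with GC-corrected values and 0.0344 with quantile normalization. By limma 0 of 78 passed, with 14 higher (17.9%) and 0 lower at an unadjusted p under 0.05, against 11.2% and 6.83% of all tested genes. At an adjusted p, 0.828% of all tested genes were called higher and 0.623% lower. RPL13A had the largest difference, with 1673 and 1713 FPKM in sh2 no-dox against 1502 and 1557 FPKM in sh1 no-dox libraries (0.15, SE 0.04, adjusted p = 0.109). RPL37A (0.12, adjusted p = 0.107), RPL41 (0.13, adjusted p = 0.141), RPS23 (0.12), RPS20 (0.10) and RPS25 (0.12) were the others among the 6 smallest p-values. Because the same no-dox libraries serve here and in the doxycycline effects, these values are not independent of each other.

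Other genes of the pathway gave a mixed picture. Their counts stand beside 10.1% of all tested genes called higher and 6.2% called lower for the averaged effect. Of 13 messages of other proteins known to carry a TOP tract, 4 rose (EEF1B2, EEF1G, EEF2 and EIF3F) and 0 fell by limma, with 11 positive and a median of 0.08, close to that of the members. Ribosomal proteins outside the naming rule, among them RACK1 and FAU, numbered 7 tested, of which 0 rose and RPL7L1 fell (-0.14, adjusted p = 0.0284). Of 8 assembly chaperones and factors that load RPL5 and RPL11, 4 fell (GRWD1, LTV1, RPF2 and RRS1) and 0 rose by limma, with a median of -0.12. LTV1, which acts in small subunit maturation, averaged 29.3 ± 1.92 FPKM in dox and 35.8 ± 1.63 FPKM in no-dox libraries (SD, n = 4 each; log2 change -0.28, adjusted p = 0.00241 by limma). Of 78 mitochondrial ribosomal proteins 2 rose (MRPL24 and MRPS16) and 6 fell, with a median of -0.03. The share of them that fell was near that of all tested genes, and the share that rose was below it.

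Of 12 genes of mTORC1 and of TOP control, DDIT4, EIF4EBP1 and MLST8 rose and 0 fell by limma, against 10.1% and 6.2% of all tested genes. DDIT4, an inhibitor of mTORC1, averaged 94.1 ± 14.9 FPKM in dox and 53.0 ± 7.67 FPKM in no-dox libraries (0.81, adjusted p = 0.000761). LARP1 did not pass (0.06, adjusted p = 0.15). Of genes that read out ribosome stress, CDKN1A rose (0.16, adjusted p = 0.00497 by limma) and MDM2 did not pass (0.05, adjusted p = 0.447). LTV1, DDIT4 and CDKN1A passed without each single library, which is why values are given for them. The other calls in these lists, mitochondrial ones apart, were each lost without 3 to 7 of the 8 libraries: 3 for EEF2, 5 for EIF3F, EIF4EBP1 and GRWD1, 6 for EEF1G, RPF2, RRS1 and RPL7L1, and 7 for EEF1B2 and MLST8.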

How the data were processed

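RNA from 8 libraries (HCT116 with a HOXB8 hairpin, 2 lines with and without doxycycline, 2 repeats each) was measured by polyA RNA-seq. The authors deposited 1 table of FPKM values, per the file headers, with 1 column per library. HISAT, Bowtie2 and genome build hg19 are named, per the submitters' processing notes. The role and version of each tool, like the way FPKM was computed, is not given in the sources used here. The table writes sh3 for the second hairpin where the labels write sh2. It was taken as the same line by elimination. Groups follow the titles, since 1 label field calls all samples induced.

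The 11712 genes averaging 1 FPKM or more (5454 were not tested) were fitted on log2(FPKM + 1) in limma 3.58.1 (R 4.3.3), with 1 mean per group (4 residual degrees of freedom), trended moderation and p-values, all two-sided, adjusted by Benjamini-Hochberg over all tested genes. Changes on this scale understate those of low genes. The call rule was an adjusted p under 0.05. There were 5 comparisons: the averaged effect, each line, their difference and the untreated lines. The fit was tested on simulated data. Exact permutation tests used scipy 1.17.1. Figures used matplotlib 3.10.9. Depth cannot be read from FPKM, and p-values measure the spread between repeats, which the design text calls independent. Promoter windows are RefSeq's on GRCh38.p14, and transcript composition is from GENCODE 29 on the same genome, neither of which is the build of the table.

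Members were named where they had the 12 smallest p-values for the averaged effect, the 6 smallest for the difference or the untreated lines, or the 5 highest or lowest means, and where they belong to the stalk, the paralogs or RPSA, RPS6, RPL5 and RPL11. Beyond 12, the called RPL10 and RPL37A were added. Some genes that the rule or the lists hold are not reported here. Members, lists and rule were chosen with earlier results of these data known. Further examples were chosen after their values were seen.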

Additional observations from a re-analysis of the deposited data

How the results depend on the processing

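All comparisons were refitted with a pseudocount of 0.1, no filter on low values, quantile normalization, median-of-ratios scaling, no trend in the moderation, a replicate block, no term for the line (averaged effect only), GC-corrected values (chosen after seeing the data) and without each library. No member was called lower for the averaged effect, and none for the difference of effects, under any of these in limma. The 14 members higher for the averaged effect became 0 with no filter, 8 with quantile normalization, 4 with median-of-ratios scaling, 3 with no trend, 7 with no term for the line and 3 with GC-corrected values, and 1 to 26 without single libraries. The 5 members called in sh1 became 0 with no filter, median-of-ratios scaling, no trend or GC-corrected values, and 0 to 10 without single libraries. In those first 4 settings 63, 258, 217 and 248 genes of the whole table were called higher in sh1, in place of 434. The 1 member called in sh2 became 0 with a pseudocount of 0.1, no filter, median-of-ratios scaling, no trend or GC-corrected values, 2 with quantile normalization, and 0 to 1 without single libraries. The cause was not tested. Deviations of repeats with the same number correlated at -0.027 to 0.215 over the 6 pairs of groups, not above 0.1 in each, and the labels tie no numbers together, so the samples were treated as unpaired. The fit with the replicate block called 34 members for the averaged effect, 23 in sh1, 8 in sh2 and 4 between the untreated lines, where the main count was 0. All of these were higher, out of 78. Of all 11712 genes, that fit called 1635, 827, 407 and 294 higher in the same order. Of the 78 tested members' averaged changes, 125 refits ended a call, 44 gave one and 1078 left the member on its side of the threshold. In 55 of the 1078, all of members not called, the sign turned. Over the whole table the 1906 calls became 1021 with no filter, 1074 with no term for the line and 1501 with no trend. They became 2684 with the replicate block, and 851 to 2351 without single libraries. HOXB8 stayed past the threshold in each refit. Depth sets no stated limit, since FPKM keeps no read numbers.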
